A study of Mus musculus with 14 samples.

Results

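The brush border of the colonic epithelium was examined through 10 genes, picked by symbol for their roles: Vil1, Pls1, Eps8, Ezr, Myo1a, Myo7b, Ush1c, Dpp4, Anpep and Ceacam1. Each symbol matched 1 row of a count table of 37680 genes, and all 10 reached the minimum of 10 counts in 3 or more libraries that 15127 genes passed for testing. The rule that picks them uses symbols and no measured value, although they were proposed with earlier results of these data known.

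The brush border is the layer of microvilli on the luminal face of intestinal absorptive cells. Each microvillus is built on a core of actin filaments that bundling proteins hold together, that membrane linkers and motors tie to the plasma membrane, and that protocadherin tip links, with their own motor and scaffold, pack into an ordered array. The membrane carries hydrolases, which trim peptides and sugars, and adhesion glycoproteins. In the colon the microvilli are best developed on the surface colonocytes that complete their differentiation as they leave the crypt.

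Poly(A) RNA was sequenced from epithelium stripped with EDTA from the whole colon of adult, age-matched mice of a mainly C57/BL6 background. The 4 groups were wildtype (WT) mice on water (4 libraries), Smad4 KO mice on water (4), WT mice after 3 d of 2.5% dextran sulfate sodium (DSS, a polymer that damages the lining of the colon when drunk; 3) and Smad4 KO mice after the same DSS course (3). Smad4 is the shared SMAD of TGF-β and BMP signalling, and in the KO mice floxed Smad4 was deleted by a tamoxifen-inducible Cre that the villin promoter drives in intestinal epithelium, so cells without that promoter's activity keep the gene. By the study's methods the Cre transgene was bred into controls as well as mutants.

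The villin promoter is also that of Vil1, the first of the 10 genes, so the stretch of 250 bases before the Vil1 transcription start is shown, from the RefSeq table on build GRCm38.p6, chr1:74409134-74409383, plus strand. The capitals mark its CArG box, the element bound by serum response factor, chosen for display after the sequence was read.
Vil1 promoter: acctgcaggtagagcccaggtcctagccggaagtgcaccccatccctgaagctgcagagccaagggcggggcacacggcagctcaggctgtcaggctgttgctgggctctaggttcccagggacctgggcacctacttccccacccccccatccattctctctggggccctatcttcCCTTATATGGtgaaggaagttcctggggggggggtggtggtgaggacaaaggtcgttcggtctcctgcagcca
A CArG box was found in this window in 1 of the 8 genes that the table lists (all but Eps8 and Myo7b), and in 1.47% of 32851 promoter windows of the same length, searched on both strands. The SMAD box GTCTG, a 5-letter motif, was in 4 of 8 windows and in 42.2% of all windows. The SMAD palindrome GTCTAGAC, which holds no GTCTG, was in 0 of 8 and 0.167%, and the BMP-type element GGCGCC in 0 of 8 and 9.59%. These matches are descriptions of letters and not of bound sites.

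Total counts ran from 12882827 to 26087231 per library, and mitochondrial genes took 4.05% to 32.8% of them, with over 20% in WT water replicates 3 and 4 and Smad4 KO water replicate 4. Smad4 itself had 118 to 182 counts per 1000000 (CPM, normalized with the TMM method of edgeR) in the 7 WT libraries and 35.1 to 46.8 in 6 libraries labelled Smad4 KO. Replicate 1 of the Smad4 KO water libraries had 158 CPM, within the WT range, so it goes against its label. It is kept under that label, and the members' results on water are also given without it. The study's figure legends count 3 Smad4 KO water replicates where 4 libraries are labelled so, and do not say which were used. The epithelial label held: the summed markers of epithelium had 10384 to 17265 CPM per library, against 0.276 to 24.8 for fibroblasts and 3.09 to 22.0 for lymphoid cells. The summed markers of surface colonocytes, the cells that bear most of the brush border, had 4021 to 4933 CPM in WT and 2488 to 3613 in Smad4 KO on water, with no overlap, and 3153 to 4087 and 2426 to 3098 after DSS. By gene, 5 of these 6 markers had lower estimates in Smad4 KO on water, and Slc26a3 a higher one. Only Car1, the most abundant of them, was wholly below WT there, at 813 to 1167 CPM against 1170 to 2699. In RNA from a tissue layer, fewer cells of a type and less RNA per cell cannot be told apart.

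Per kilobase of exon, the scale on which genes can be compared with each other, the 10 genes spread over most of the range of the genes tested. Ceacam1 was the highest, with a median over the 14 libraries of 575 CPM per kilobase, above 99.4% of the genes tested. Vil1 (202), Ezr (178) and Myo1a (172) followed, and these neighbours overlapped between libraries. Ush1c (57.0) and Pls1 (54.8) formed the next step and Myo7b (25.6) and Eps8 (24.3) the one after, again with overlap inside each step. The Pls1 range also met that of Myo7b. Dpp4 had 7.54, near the middle of all genes tested at percentile 58.8, and Anpep had 0.573, at percentile 16.8. The ranges of Ceacam1 and Vil1, of Myo1a and Ush1c, of Eps8 and Dpp4, and of Dpp4 and Anpep did not overlap in any library. The 7 structural genes and the adhesion glycoprotein thus each exceeded at least 82.9% of the genes tested, while the 2 hydrolases were at middling and low levels.

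**Figure D1:**
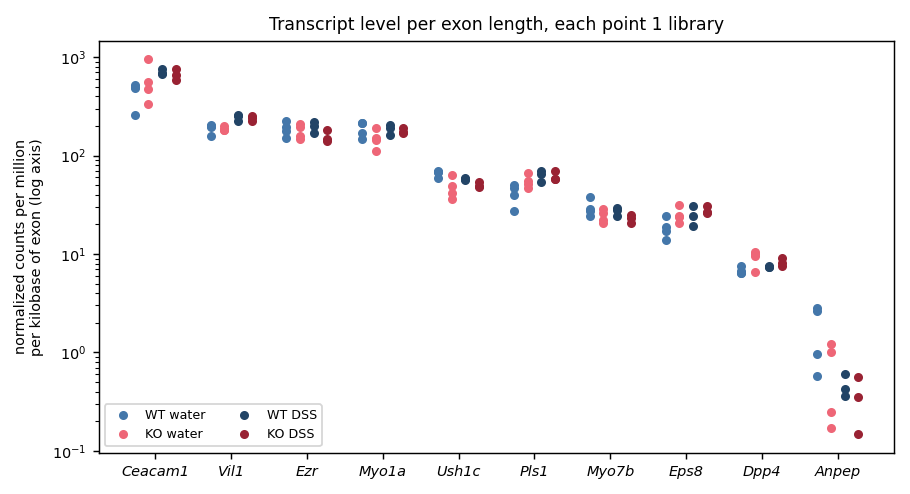
The y axis gives the CPM per kilobase of exon on a log axis, and the x axis the 10 genes in order of their median. Each point is 1 library, coloured by its group of 4 (water) or 3 (DSS) mice, and the levels run from a median of 575 for Ceacam1 to 0.573 for Anpep.

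Within a gene, levels were far steadier than between genes. Across the 14 libraries the highest value was 1.60 to 2.52 times the lowest for 8 of the 10 genes, with the narrowest range in Ezr and the widest of these in Pls1. For Ceacam1 it was 3.68 times and for Anpep 18.8 times. WT water replicate 4, the library with the highest mitochondrial share, held the lowest value of Vil1, Pls1, Eps8 and Ceacam1, and Smad4 KO water replicate 3 the lowest of Myo1a and Ush1c. Over the 14 libraries, a gene's log2 CPM correlated with the mean of the other 9 at -0.22 (Dpp4) to 0.57 (Myo7b). Genes of the same library share its depth and composition. The mean is of unscaled log2 values, so Anpep, the most scattered gene, weighs most in it for the other genes. Low correlations therefore do not show whether the remaining members varied together.

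**Figure D2:**
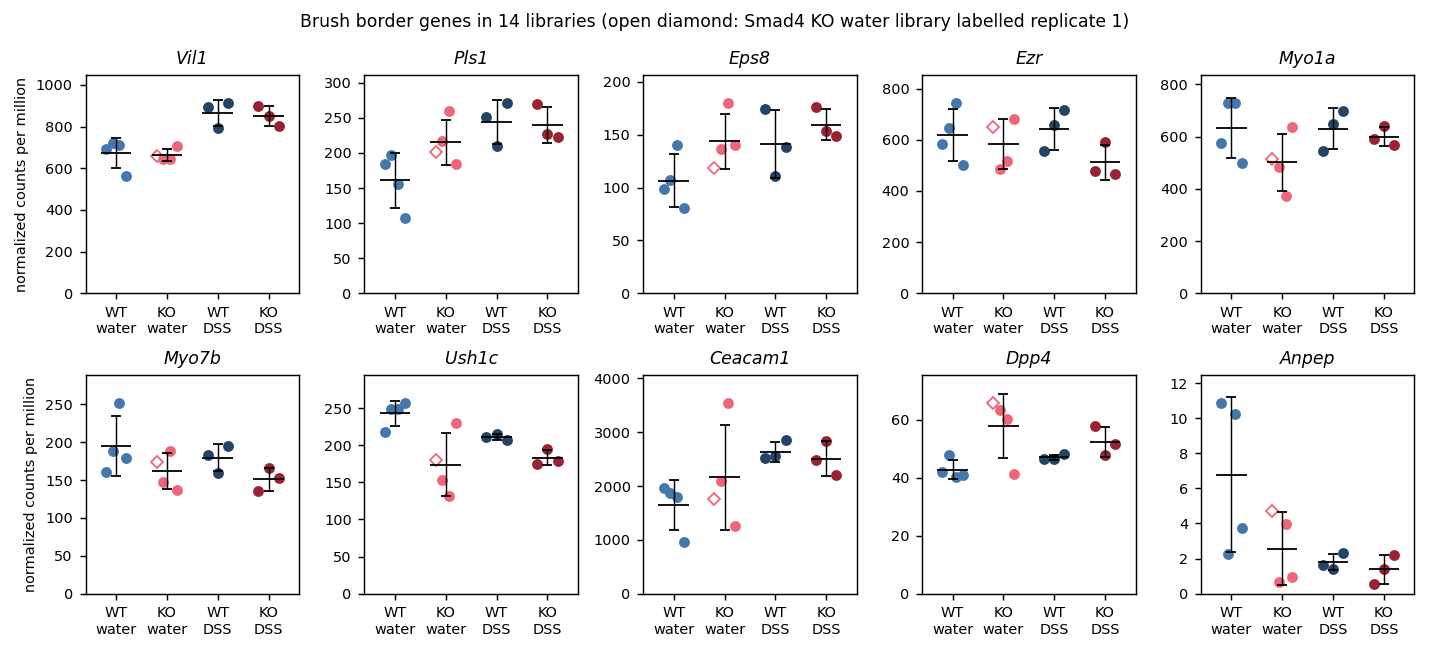
Each panel plots the CPM of 1 gene (y axis from 0) in each library, by group on the x axis; horizontal lines are group means and bars 1 SD. The open diamond is the library labelled Smad4 KO water replicate 1. Of the 10 genes only Vil1 has both DSS groups wholly above both water groups, at 794 and more against 720 and less. The share of all genes with that separation was not counted.

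Vil1, Pls1 and Eps8 organise the actin core. Vil1 (ENSMUSG00000026175, mm9 chr1:74455950-74482133, plus strand) encodes villin, which bundles actin filaments and severs them when calcium is high. Its levels in WT on water, replicates 1 to 4, were 692, 720, 712 and 564 CPM, and in Smad4 KO on water 660, 647, 643 and 708 CPM. After DSS they were 892, 794 and 913 CPM in WT and 896, 852 and 802 CPM in Smad4 KO. All 6 DSS libraries lay above all 8 water libraries, and the genotypes overlapped within each treatment. By genotype, 12.8% of all genes were wholly above their water values in WT and 4.6% in Smad4 KO. The share of all genes apart in both genotypes together was not counted. Vil1 was 1.29-fold higher after DSS in WT (0.37 ± 0.14 on the log2 scale, estimate and standard error, edgeR adjusted p = 0.16) and 1.28-fold higher in Smad4 KO (0.36, standard error 0.14, edgeR adjusted p = 0.50), neither of which passed the adjusted threshold of 0.05. With the library labelled Smad4 KO water replicate 1 left out, the log2 fold change in Smad4 KO was 0.35 (edgeR adjusted p = 0.54). With the letter prefix of the library names as a block the values were 0.26 in WT and 0.20 in Smad4 KO. In Smad4 KO no prefix held both treatments, so the latter value rests on prefix differences taken from WT. Between genotypes Vil1 differed by -0.02 on water (95% interval -0.28 to 0.25) and by -0.03 after DSS (-0.34 to 0.28), on the log2 scale. Its exons share 50 bases with Usp37 on the other strand, a gene with 425 to 1225 counts per library against 5274 to 21678 for Vil1.

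Pls1 (ENSMUSG00000049493, chr9:95653061-95745730, minus strand) encodes plastin 1, or fimbrin, which cross-links the core filaments at close spacing. Its levels on water were 184, 197, 156 and 107 CPM in WT and 201, 217, 259 and 184 CPM in Smad4 KO. After DSS they were 251, 210 and 271 CPM in WT and 270, 227 and 223 CPM in Smad4 KO. In WT the DSS libraries lay above all water libraries, while in Smad4 KO the treatments overlapped. The log2 fold change of DSS against water was 0.60 in WT (standard error 0.19, edgeR adjusted p = 0.13) and 0.16 in Smad4 KO (standard error 0.19, edgeR adjusted p = 0.87). The difference between those responses was -0.44 (95% interval -1.01 to 0.12, edgeR adjusted p = 0.68), the lowest unadjusted p for a difference of responses among the 10 genes. On water Pls1 was 1.34-fold higher in Smad4 KO than in WT, but with overlap and an edgeR adjusted p of 0.13.

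Eps8 (ENSMUSG00000015766, chr6:137425766-137603397, minus strand) encodes a protein of the microvillus tip that caps and bundles actin. On water it had 98.4, 107, 140 and 80.4 CPM in WT and 119, 136, 180 and 140 CPM in Smad4 KO. The DSS libraries had 174, 111 and 138 CPM in WT and 176, 153 and 149 CPM in Smad4 KO. Neither the genotypes within a treatment nor the treatments within a genotype were fully apart. The estimates were 0.43 for Smad4 KO against WT on water (standard error 0.18, edgeR adjusted p = 0.13) and 0.41 for DSS in WT (standard error 0.19, edgeR adjusted p = 0.24), both on the log2 scale.

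Ezr and Myo1a tie the core to the membrane. Ezr (ENSMUSG00000052397, chr17:6942390-6987133, minus strand) encodes ezrin, the cross-linker of actin and membrane proteins in microvilli. It had 582, 645, 743 and 502 CPM in WT and 649, 485, 516 and 682 CPM in Smad4 KO on water. With DSS it had 556, 658 and 717 CPM in WT and 480, 592 and 466 CPM in Smad4 KO. The last of these were lower on average but overlapped, at -0.33 on the log2 scale (standard error 0.19, edgeR adjusted p = 0.999), the lowest unadjusted p of the 10 genes in that comparison. On water the genotypes differed by -0.08 (95% interval -0.43 to 0.26).

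Myo1a (ENSMUSG00000025401, chr10:127142226-127157943, plus strand) encodes the myosin that forms lateral bridges between the core and the membrane. On water it had 577, 728, 727 and 497 CPM in WT and 513, 483, 373 and 638 CPM in Smad4 KO. The levels after DSS were 545, 650 and 698 CPM in WT and 590, 642 and 568 CPM in Smad4 KO. On water, Smad4 KO replicates 2 and 3 lay below every WT library, replicate 1 just above the lowest WT library and replicate 4 above 2 of them. Smad4 KO against WT gave a log2 fold change of -0.33 on water (standard error 0.17, edgeR adjusted p = 0.21) and -0.07 after DSS (95% interval -0.50 to 0.35).

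Myo7b and Ush1c belong to the complex that anchors the tip links between microvilli. Myo7b (ENSMUSG00000024388, chr18:32118888-32196615, minus strand), the motor of the complex, had 161, 188, 251 and 179 CPM in WT and 174, 147, 188 and 137 CPM in Smad4 KO on water. With DSS, Myo7b had 183, 160 and 195 CPM in WT and 135, 165 and 153 CPM in Smad4 KO. The Smad4 KO means were lower under both treatments and the libraries overlapped in both. Smad4 KO differed from WT by a log2 fold change of -0.27 on water (standard error 0.15, edgeR adjusted p = 0.25) and -0.25 after DSS (standard error 0.18, edgeR adjusted p = 0.999).

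Ush1c (ENSMUSG00000030838, chr7:53450720-53493873, minus strand) encodes harmonin, the scaffold that joins the motor to the tip-link protocadherins. On water it had 218, 249, 249 and 256 CPM in WT and 180, 153, 132 and 230 CPM in Smad4 KO, means of 243 ± 17.1 (SD, n = 4) and 174 ± 42.5 (SD, n = 4). After DSS it had 211, 215 and 208 CPM in WT and 175, 195 and 179 CPM in Smad4 KO. On water 3 Smad4 KO libraries were below every WT library and replicate 4 was within the WT range. After DSS the genotypes did not overlap, and in WT the DSS libraries lay just below all water libraries. The log2 fold change on water was -0.48 (standard error 0.15, 95% interval -0.80 to -0.17, edgeR adjusted p = 0.053), a 0.716-fold level that narrowly missed the threshold. After DSS it was -0.20 (95% interval -0.57 to 0.16, edgeR adjusted p = 0.999).

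Dpp4 and Anpep are the 2 hydrolases, both peptidases that work on the luminal face of the membrane. Dpp4 (ENSMUSG00000035000, chr2:62168130-62250288, minus strand) removes dipeptides, among them the ends of incretin hormones. It had 42.0, 47.6, 40.2 and 41.0 CPM in WT and 65.6, 63.2, 60.3 and 41.4 CPM in Smad4 KO on water, means of 42.7 ± 3.36 (SD, n = 4) and 57.59 ± 11.03 (SD, n = 4). With DSS, Dpp4 had 46.5, 46.6 and 48.0 CPM in WT and 57.9, 47.7 and 51.5 CPM in Smad4 KO. On water 3 Smad4 KO libraries were above every WT library, again with replicate 4 inside the WT range, and after DSS the genotypes met at the lowest Smad4 KO value. Relative to WT, the Smad4 KO log2 fold change was 0.43 on water (standard error 0.14, 95% interval 0.13 to 0.73, edgeR adjusted p = 0.061) and 0.16 after DSS (95% interval -0.19 to 0.50, edgeR adjusted p = 0.999). Dpp4 thus had its higher mean in Smad4 KO where Ush1c had its lower one.

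Replicate 1 of Smad4 KO on water, with a WT level of Smad4, lay with replicates 2 and 3 for both genes: it had the highest Dpp4 of all 14 libraries and a Ush1c below every WT value on water. Without it the log2 fold change on water was -0.50 for Ush1c (edgeR adjusted p = 0.071) and 0.36 for Dpp4 (edgeR adjusted p = 0.13), in a fit where 7.66% of all genes passed. For the other members on water the same fit gave -0.01 for Vil1, 0.45 for Pls1, 0.51 for Eps8, -0.14 for Ezr, -0.34 for Myo1a, -0.31 for Myo7b, -1.84 for Anpep and 0.48 for Ceacam1, and 0 of the 10 passed (lowest edgeR adjusted p = 0.071). Smad4 KO water replicate 4, with 21.4% mitochondrial counts, lay with WT. Without it the values were -0.64 for Ush1c (edgeR adjusted p = 0.00335) and 0.57 for Dpp4 (edgeR adjusted p = 0.00304), both past the threshold, in a fit where 27.3% of all genes passed. The libraries can also be read within their name prefix. Within prefix MP, replicate 4 of each genotype, Ush1c was 256 CPM in WT and 230 CPM in Smad4 KO, and Dpp4 41.0 and 41.4 CPM. Within prefix Z, WT replicate 3 had 249 CPM of Ush1c against 180 and 153 CPM in Smad4 KO replicates 1 and 2, and 40.2 CPM of Dpp4 against 65.6 and 63.2 CPM. Prefixes D and MS held 1 genotype only on water. With the prefix as a block the log2 fold changes were -0.40 and 0.39 (edgeR adjusted p = 0.077 and 0.13). The meaning of the prefixes and the part of the mitochondrial share in these values were not tested.

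Anpep (ENSMUSG00000039062, chr7:86966689-86993096, minus strand) encodes aminopeptidase N, which takes single residues from peptide ends. It was the least abundant and most scattered member, with raw counts of 11 to 293 per library. On water it had 10.8, 2.26, 10.3 and 3.74 CPM in WT and 4.71, 0.656, 3.95 and 0.962 CPM in Smad4 KO. After DSS it had 1.65, 1.42 and 2.32 CPM in WT and 0.575, 1.38 and 2.18 CPM in Smad4 KO. In WT on water 2 libraries stood near 10 CPM and the other 2 at less than 4, and groups overlapped in every comparison. The log2 fold change was -1.92 for DSS in WT (standard error 0.69, edgeR adjusted p = 0.15) and -1.39 for Smad4 KO against WT on water (standard error 0.61, edgeR adjusted p = 0.14). Leaving out Smad4 KO replicate 1 on water, the latter was -1.84 (edgeR adjusted p = 0.090). Small-intestine markers, for the part of the gut where aminopeptidase N is most abundant, summed to 124 to 210 CPM in WT and 58.9 to 115 CPM in Smad4 KO on water, with no overlap, and to 115 to 160 and 89.6 to 173 CPM after DSS. Most of each sum was Fabp2 and Fabp6. Of 4 markers tested, 3 had lower estimates in Smad4 KO on water. Sis went the other way, at 2.07, 3.22, 1.65 and 1.82 CPM in Smad4 KO, above every WT value. Within WT on water the markers did not move together: replicates 1 to 4 had 5.77, 0.0887, 6.11 and 0.321 CPM of Apoa1, which is high where Anpep is, 156, 95.5, 155 and 200 CPM of Fabp2, 42.4, 26.8, 20.3 and 9.20 CPM of Fabp6, and 1.11, 1.64, 1.06 and 1.18 CPM of Sis. Apoa4 and Lct were over 1 CPM in replicate 3 alone. Their part in the Anpep values was not tested.

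Ceacam1 (ENSMUSG00000074272, chr7:26246721-26262644, minus strand) encodes a carcinoembryonic antigen family adhesion glycoprotein of the apical membrane. On water it had 1956, 1869, 1798 and 961 CPM in WT and 1767, 2085, 3536 and 1260 CPM in Smad4 KO. After DSS it had 2515, 2552 and 2854 CPM in WT and 2476, 2846 and 2210 CPM in Smad4 KO. In WT every DSS library was above every water library, and in Smad4 KO replicate 3 on water was above them all. The log2 fold change of DSS against water was 0.68 in WT (standard error 0.29, edgeR adjusted p = 0.20) and 0.22 in Smad4 KO (standard error 0.29, edgeR adjusted p = 0.89), with a difference between those responses of -0.47 (95% interval -1.35 to 0.42). Reads of the near-identical paralog Ceacam2 could be assigned to either gene, and Ceacam2 had 0.834% to 4.77% of the Ceacam1 CPM.

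None of the 10 genes passed the adjusted threshold of 0.05 in any of the 5 comparisons in edgeR. Smad4 itself did not pass between genotypes in that model either. It was at -2.05 on the log2 scale after DSS (standard error 0.43, edgeR adjusted p = 0.21), wholly below WT, and at -0.95 on water (standard error 0.36, edgeR adjusted p = 0.095). The library labelled Smad4 KO water replicate 1, with 158 CPM of Smad4, enters the spread estimated in that model. Its part in the Smad4 result was not tested. A gene that did not pass is not shown to be unchanged. For Smad4 KO against WT on water, where 1276 of all genes tested passed (8.44%), 5 members had an unadjusted p below 0.05 (Pls1, Eps8 and Dpp4 higher, Ush1c and Anpep lower), against 29.3% of all genes. No member was fully apart between the genotypes, with 5.18% of genes wholly above and 5.2% wholly below. After DSS, Smad4 KO against WT called 2 genes in all (0.0132%), against 114 (0.801%) in edgeR on the 6 DSS libraries alone and 492 (3.45%) in pairwise DESeq2, neither with a member among them. In the model of all libraries, 0 members had an unadjusted p below 0.05, against 4.43% of genes. There 8 of the 10 estimates were lower in Smad4 KO, and their median was -0.07 on the log2 scale, against -0.00058 over all genes. Ush1c was the 1 member wholly below its WT libraries, as were 11.4% of genes.

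In WT, DSS against water called 0 genes (0%) in edgeR, with 3174 genes (21%) and 4 members (Vil1, Pls1 and Ceacam1 higher, Anpep lower) at an unadjusted p below 0.05. DESeq2 called 833 genes there (5.51%), Vil1, Pls1 and Anpep among them. Vil1, Pls1 and Ceacam1 lay wholly above their water values in WT, as did 12.8% of genes, and Ush1c wholly below, as did 11.6%. In Smad4 KO, DSS against water called 10 genes (0.0661%), and Vil1 was the only member that did not overlap, against 4.6% of genes above, and the only 1 with an unadjusted p below 0.05, against 8.4%. The difference of the DSS responses called 1 gene (0.00661%) and 0 members had an unadjusted p below 0.05, against 7.5% of genes. These comparisons share groups, so that a low WT water library enters both the genotype contrast on water and the DSS contrast in WT.

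**Figure D3:**
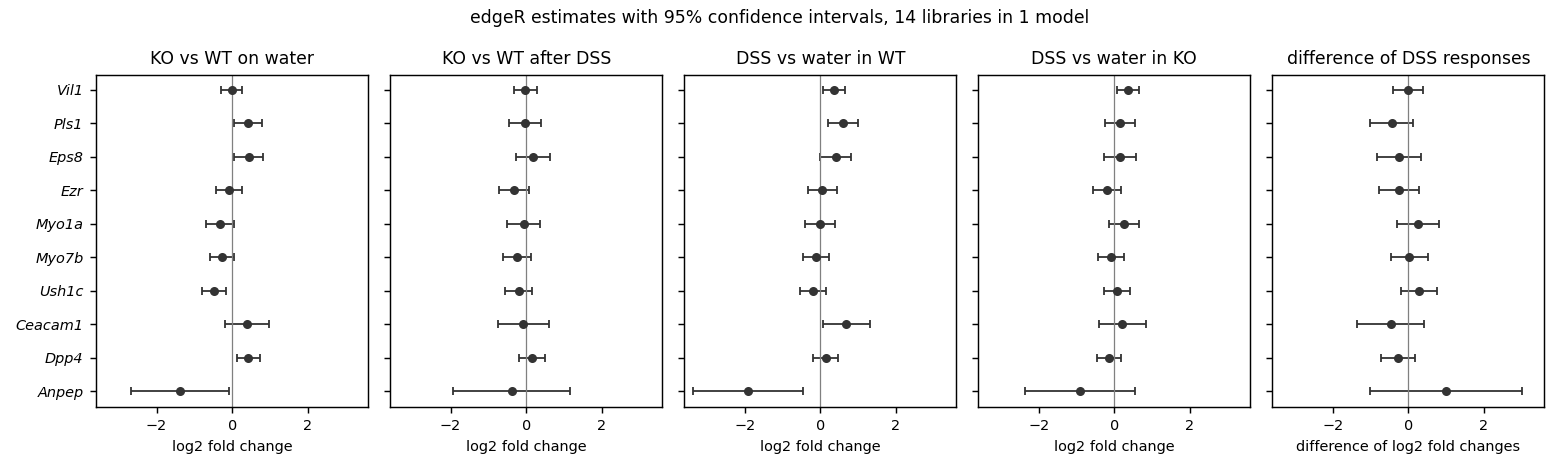
Points are edgeR log2 fold changes of the 10 genes and bars their 95% confidence intervals, in 1 panel for each comparison. On water the intervals of Pls1, Eps8 and Dpp4 lie above 0 and those of Ush1c and Anpep below it, after DSS all 10 genotype intervals include 0, and Vil1 is above 0 for DSS against water in both genotypes.

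Other genes of the brush border were taken from lists by role: core actin proteins, paralogs of the members, membrane linkers, tip-link proteins, apical traffic, hydrolases and the Ceacam family. The tip-link list also holds genes of other roles, such as the motor Myo6 and the adhesion protein Tmigd1. Of 72 genes listed, 62 could be tested. On water 3 were higher and 5 lower in Smad4 KO at an edgeR adjusted p below 0.05, and the median over the 62 was -0.08 on the log2 scale, against -0.01 over all genes. Of all genes 4.83% were called higher and 3.6% lower. Cdhr5, a tip-link protocadherin that binds the harmonin complex, fell from 701, 810, 834 and 865 CPM in WT to 491, 409, 550 and 602 CPM in Smad4 KO (log2 fold change -0.65, edgeR adjusted p = 0.024). Espn, the actin bundler espin, fell from 73.4, 107, 65.1 and 77.9 CPM to 45.1, 35.3, 39.9 and 60.1 CPM (log2 fold change -0.84, edgeR adjusted p = 0.032). For both genes the genotypes did not overlap.

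Tmigd1, an adhesion protein of the microvillus membrane, also fell (log2 fold change -0.67, edgeR adjusted p = 0.046), and Myo5a, an actin-based cargo motor at under 4 CPM in every library, rose (1.44, edgeR adjusted p = 0.049). The 4 other called genes are named after their values were seen: the ezrin-binding scaffold Slc9a3r1 (log2 fold change -0.55, edgeR adjusted p = 0.037) and the traffic GTPase Rab8a (-0.51, edgeR adjusted p = 0.030) fell, and the motor Myo6 (0.53, edgeR adjusted p = 0.032) and the filament capper Tmod3 (0.53, edgeR adjusted p = 0.041) rose. With Smad4 KO water replicate 1 left out the calls were 1 higher (Myo6) and 6 lower (Cdhr5, Espn, Slc9a3r1, Rab8a, Avil and Cpm). That fit called 7.66% of all genes. With only the 2 water groups in the model, edgeR called 0 of the 62 and 1 gene of all. DESeq2 called 1 higher and 5 lower there, counts that are not set against a share of all genes. DESeq2 on all libraries called 6 higher and 10 lower, where it called 17.3% of all genes. The other protocadherin, Cdhr2, differed by -0.24 (edgeR adjusted p = 0.23), and the 16 tested hydrolases had 0 calls, 10 of them with lower and 6 with higher estimates.

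After DSS 0 of the 62 passed for Smad4 KO against WT in edgeR with all libraries. Pairwise DESeq2, the test the study used, called 13 of the 60 it could test (3.45% of all genes), 2 higher and 11 lower, with Cdhr5, Espn, Slc9a3r1, Myh14, Naaladl1 and Ceacam20 among the lower. In edgeR on the 6 DSS libraries 2 were lower (Naaladl1 and Ceacam20). In DESeq2 on all libraries 1 was lower (Naaladl1), a call without the share of all genes beside it. Of the 62, 49 had lower estimates and 13 higher, with a median of -0.23 against -0.00058 over all genes, and 9 had an unadjusted p below 0.05, which 4.43% of all genes had. All 7 genes of the tip-link list (median -0.14), 14 of 16 hydrolases (median -0.33) and 7 of 8 linkers (median -0.30) had lower estimates. So did 9 of 12 core actin proteins (median -0.16), 6 of 8 apical traffic genes (median -0.13) and 4 of 7 paralogs (median -0.24). The Ceacam family had 2 lower and 2 higher (median 0.09). Of all genes, 7573 of 15127 had lower estimates. Naaladl1, a peptidase, had 24.8, 19.97 and 15.5 CPM in WT and 6.22, 4.43 and 10.1 CPM in Smad4 KO. The surface colonocyte markers moved with these estimates: 6 of 6 were lower after DSS (median -0.53), and their summed level did not overlap between genotypes there either. By gene, 3 of the 6 were wholly below WT, as were 11.4% of all genes. Car1, the most abundant of them, overlapped, at 1416, 975 and 1758 CPM in WT and 1421, 911 and 1508 CPM in Smad4 KO. The goblet cell markers were lower as well, 6 of 6 with a median of -0.84 and sums of 14520 to 15785 CPM in WT and 10401 to 11262 CPM in Smad4 KO. The fibroblast markers were higher, 4 of 4 tested with a median of 3.08, at sums of 0.276 to 1.89 and 7.21 to 12.97 CPM. The part of these cell types in the brush border estimates was not tested. For DSS against water 0 of the 62 passed in either genotype in edgeR. DESeq2 on all libraries called 4 higher (Myo1c, Myo5a, Myo6 and Rab27a) and 1 lower (Tmigd1) in WT, with 5.51% of all genes called. Pairwise DESeq2 called 5 higher and 4 lower of 61 there, with 1731 of 14407 genes called in all. In Smad4 KO both called Naaladl1 lower, a call that is not set against a share of all genes. In edgeR the lowest unadjusted p in each direction belonged to Myo1c and Tmigd1 in WT (0.54 and -1.02) and to Ceacam10 and Naaladl1 in Smad4 KO (0.61 and -1.28).

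**Figure D4:**
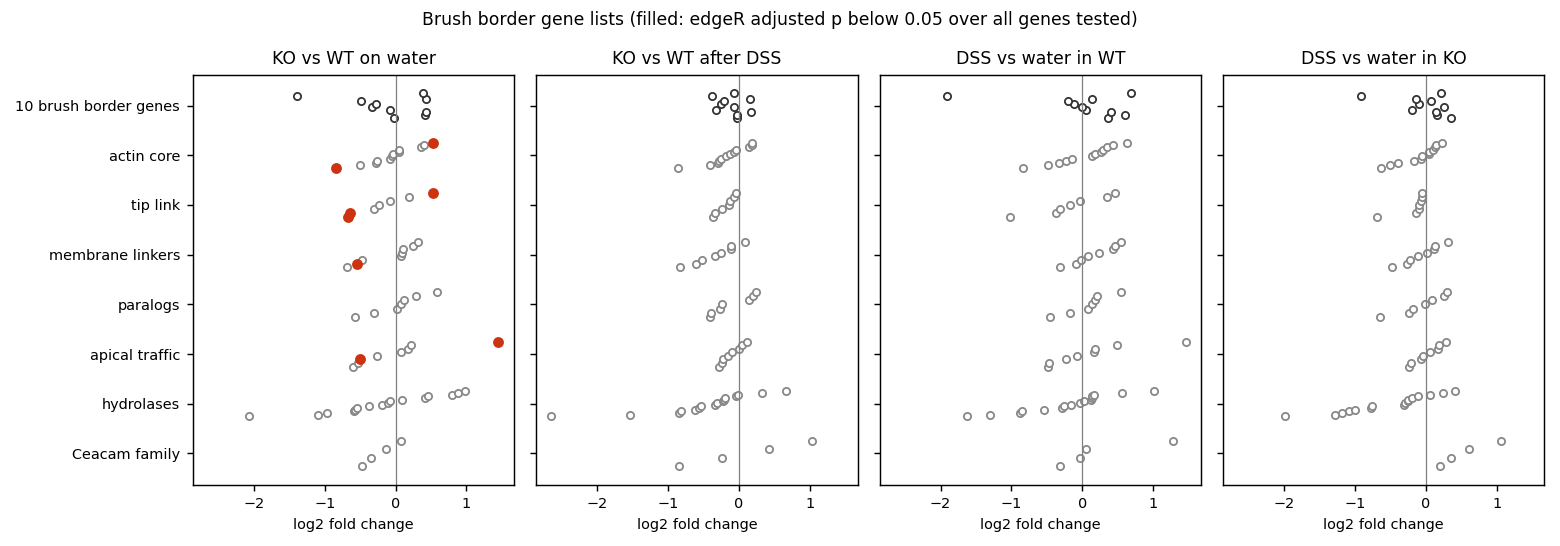
Each point is a gene's edgeR log2 fold change (x axis), in rows for the 10 members and the 7 brush border lists and in panels for 4 comparisons. Filled points have an adjusted p below 0.05 over all genes: on water 3 lie to the right of 0 and 5 to the left, and no other panel holds any.

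Among the other marker genes listed, those called for Smad4 KO against WT on water were led by the fibroblast genes Col1a2 and Dcn (log2 fold changes 3.40 and 3.29) and the stem cell genes Lgr5 and Smoc2 (0.92 and 0.89), which rose, and by the surface colonocyte gene Car1 (-0.98) and the small-intestine marker Fabp2 (-0.96), which fell. Of the 5 stem and cycling markers on water, 4 had higher estimates in Smad4 KO and 1 a lower one. The lower one was the stem cell gene Ascl2, at 14.7, 4.71, 2.22 and 5.67 CPM in Smad4 KO. In WT on water it had 20.7, 16.9, 16.0 and 14.2 CPM. Smoc2 was the 1 listed gene called after DSS (1.53, edgeR adjusted p = 0.011), where 2 of the 5 had higher and 3 lower estimates. The fibroblast markers summed to 2.98 to 24.8 CPM in Smad4 KO on water and to 0.896 to 4.06 CPM in WT.

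The 5 genes whose log2 CPM followed the mean of the 10 members most closely, of 11569 considered, were March3 (Pearson r = 0.91 over the 14 libraries), Slco2a1 (0.89), Zfp498 (0.85), Abcb1a (0.84) and Slc30a1 (0.84). Spearman's rho was 0.92, 0.87, 0.67, 0.77 and 0.80 for the same genes. They were taken as the highest of all candidates, and the libraries share depth and composition, so the values are descriptions. Anpep, with the widest range of the 10 members, weighs most in that unscaled mean.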

How the data were processed

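Whole-number counts per gene had been made by the authors from poly(A) libraries of colon epithelium, aligned to mm9 with Hisat2 and counted with featureCounts, and deposited without normalization. The strand setting of the counting is not given in the sources used here. From these counts, CPM were computed with TMM factors, and genes that reached 10 counts in 3 or more libraries entered edgeR 4.0.16 (R 4.3.3; quasi-likelihood test, all 14 libraries in 1 model, Benjamini-Hochberg adjustment over all genes tested, threshold 0.05). The authors used pairwise DESeq2; DESeq2 1.42.0, fits restricted to the groups at hand, other filters and scalings, blocks and left-out libraries were alternatives, and the models without libraries of over 20% mitochondrial counts were added after the data were seen. Exon lengths and positions came from GENCODE M1 (NCBIM37, mm9), which lists 37310 of the IDs. The fit was also run on simulated counts, the outcome of which is not given here and is not used as support for any result.

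The members and the gene lists were chosen with earlier results of these data known. All members were named in every comparison, as were, of the lists, up to 5 called genes in each direction or, with none called, those of lowest p. The study describes the libraries as mice; the labels give only replicate numbers, so p-values measure the spread between these samples. The likeness measure used log2 CPM with 0.5 added, of genes with a mean of at least 50 normalized counts.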

Additional observations from a re-analysis of the deposited data

Results flagged for a closer look

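Of 22 gene and group combinations of 4 libraries examined for a sample far from its group, 2 stood out, where chance gives about 1 in 20. Ceacam1 in WT water replicate 4 had 961 CPM, below 1798 to 1956 CPM in the other 3 libraries. Smad4 in the library labelled Smad4 KO water replicate 1 had 158 CPM, above 35.1 to 46.8 CPM in the other 3.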

How the results depend on the processing

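The reported model called 0 members in each comparison, and 92 of 101 alternative counts were also 0, which says little where few genes of any kind were called. For Smad4 KO against WT on water, 0 members became 2 with DESeq2 on all libraries (Ush1c, Dpp4; 17.3% of all genes called), 1 with a filter of 50 counts (Ush1c; 13.9%), 2 with the name prefix as a block (Pls1, Myo7b; 13.3%), 2 without the 3 libraries of over 20% mitochondrial counts (Ush1c, Dpp4; 15.9%) and 4 when the library labelled Smad4 KO replicate 1 was left out as well (Eps8, Myo1a, Ush1c, Dpp4; 26.2%), against 8.44% in the reported model. Leaving out 1 library at a time gave 0 to 2, the 2 without Smad4 KO replicate 4 (27.3%). The mitochondrial share as a covariate gave 0 members and 8 genes in all. For DSS against water in WT, DESeq2 gave 3 on all libraries (5.51%) and 3 on the 2 groups (12%). The cause was not tested.

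Replicate numbers did not pair the libraries: same-numbered libraries deviated from their group means with correlations of -0.11 to 0.42, and 2 of 19 pairs exceeded 0.1. The replicate block gave 4 members on water (Pls1, Ush1c, Dpp4, Anpep), with 19.7% of all genes called, and changed no other member's call. Under that block Myo1a turned to 0.00802 for DSS in WT.

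Small estimates that were not called changed sign. For DSS in WT, Myo1a was 0.00764 with no filter and 0.050 with the mitochondrial covariate, Dpp4 -0.043 with that covariate, Ezr -0.0159 with the prefix block and -0.0148 within prefix D, and Myo7b 0.049 and 0.048 without the libraries of over 20% mitochondrial counts, the second also without the library labelled Smad4 KO replicate 1. For DSS in Smad4 KO no prefix held both treatments. The prefix block there gave Pls1 -0.24 and Myo7b 0.33, and the last model gave Ezr 0.038 and Ceacam1 -0.16. For Smad4 KO against WT after DSS, Vil1, Pls1 and Myo1a were 0.012, 0.058 and 0.0070 with the prefix block and 0.011, 0.058 and 0.0051 within prefix D. On water Vil1 was 0.067 with the prefix block. For the difference of responses, Vil1 and Myo7b were 0.019 and -0.0071 with the covariate, 0.093 and -0.21 without the high mitochondrial libraries, and 0.10 and -0.19 without the labelled library too.

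With 1 library left out, values ran from -0.094 to 0.026 (Vil1) and -0.17 to 0.025 (Ezr) for genotype on water; -0.086 to 0.013 (Vil1), -0.12 to 0.059 (Pls1), -0.17 to 0.0072 (Myo1a) and -0.17 to 0.011 (Ceacam1) after DSS; -0.035 to 0.17 (Ezr), -0.11 to 0.091 (Myo1a) and -0.20 to 0.037 (Myo7b) for DSS in WT; -0.034 to 0.24 (Ush1c) for DSS in Smad4 KO; and -0.068 to 0.075 (Vil1) and -0.13 to 0.11 (Myo7b) for the difference. Precision is set by 3 or 4 libraries a group, and for Anpep by its low counts.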
